A study of Mus musculus with 10 samples.

Results

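The Schwann cell and myelin genes described here are 8 named genes, Sox10, Mbp, S100b, Mag, Prx, Ngfr, Pmp22 and Ncmap, found by symbol among the 21956 genes of the deposited expression table. Each symbol matched 1 row, and all 8 passed the filter on low counts that left 13404 genes for testing. The table comes from bulk poly(A) RNA of mouse gastrocnemius, a calf muscle, with 5 wild-type samples labelled Sham and 5 wild-type samples labelled HLI, read here as hindlimb ischaemia although the labels give only the letters. Age, sex, strain and time after surgery are not stated in the labels, and nothing there says that each sample is another animal, so that a p-value measures only how far these samples vary, which can be technical variation. The series title concerns FGF13 in endothelial cells, and the labels give no change of that gene in either group. HLI is set against Sham here for the transcripts that the nerves of the muscle contribute.

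Schwann cells are the glia of peripheral nerve. In a muscle they wrap the motor and sensory axons of the intramuscular nerve branches and cap the neuromuscular junctions. The transcription factor SOX10 is needed at every stage of the lineage and acts with EGR2 to turn on the myelin genes. Myelinating cells make compact myelin from proteins such as MBP and PMP22 and keep uncompacted membrane, with MAG next to the axon and periaxin at the outer surface. When an axon is lost, Schwann cells are known to lower myelin genes and to raise genes of the repair state, the p75 neurotrophin receptor gene Ngfr among them.

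Promoter sequences are shown for 3 members because their levels followed each other or did not, as described further on. Mag and Prx were correlated over the 10 libraries, with Pearson's r = 0.83, below the median of 0.91 of the pairs without Ngfr. Ngfr did not follow them in every library. Each sequence is the 250 bases before an annotated transcription start, 5′ to 3′ on the strand of the gene, from RefSeq on GRCm38.p6. That build is not mm8, the build that the submitters' processing notes name, and no deposited value was joined to these coordinates. Of the 8 members, 6 had an entry in the RefSeq table, and Sox10 and Mbp did not. The windows are chr7:30914923-30915172 on the minus strand for Mag, the most upstream of its 3 starts, chr7:27499074-27499323 on the plus strand for Prx and chr11:95587699-95587948 on the minus strand for Ngfr. Capitals mark a match to the SOX core, searched as ACAAAG or ACAATG on both strands.
Mag: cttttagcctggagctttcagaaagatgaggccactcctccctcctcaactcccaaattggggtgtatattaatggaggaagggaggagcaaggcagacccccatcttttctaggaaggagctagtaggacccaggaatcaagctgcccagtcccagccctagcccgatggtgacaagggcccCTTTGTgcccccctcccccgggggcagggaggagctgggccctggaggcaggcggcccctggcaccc
Prx: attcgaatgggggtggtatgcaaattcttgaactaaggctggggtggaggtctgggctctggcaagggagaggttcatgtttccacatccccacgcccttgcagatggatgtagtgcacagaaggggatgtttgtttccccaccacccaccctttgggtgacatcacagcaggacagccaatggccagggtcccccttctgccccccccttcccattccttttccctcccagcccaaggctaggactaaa
Ngfr: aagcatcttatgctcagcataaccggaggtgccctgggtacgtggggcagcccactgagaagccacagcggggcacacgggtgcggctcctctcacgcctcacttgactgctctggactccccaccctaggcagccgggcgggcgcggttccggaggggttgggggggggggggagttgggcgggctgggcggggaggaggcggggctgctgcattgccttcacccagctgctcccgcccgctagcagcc
The Mag window held 1 SOX core, on the opposite strand, beginning 67 bases before the start. The same site lay 126 bases before another Mag start, so that it fell in 2 of the 3 Mag windows. The other 10 windows of the 6 members held none, and none of the 12 windows held the EGR2 motif, searched as GCGNGGGCG on both strands. Among all 32851 windows of this length in the table, 25.2% held a SOX core and 4.70% held the EGR2 motif. A match in letters is a description of the window and no evidence of binding.

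The levels of the 8 members spanned a wide range, with the structural proteins of compact myelin at the top. On the length-normalized TPM scale (transcripts per 1000000, deposited by the authors), the mean over 10 libraries was 226 for Pmp22, 112 for Mbp, 15.5 for Prx, 5.08 for S100b, 4.36 for Ncmap, 2.89 for Sox10, 2.71 for Mag and 1.56 for Ngfr. In each of the 10 libraries Pmp22 lay above Mbp, Mbp above Prx and Prx above S100b (exact two-sided sign-flip test of the log2 ratio, adjusted p = 0.0046 for each of these steps, over 7 neighbouring pairs). Ncmap lay below S100b in 8 libraries and above Sox10 in 7 (exact adjusted p = 0.033 and 0.027). The neighbours Sox10 and Mag did not differ beyond their spread, since Sox10 was the higher in 5 of 10 libraries (exact adjusted p = 0.45). Ngfr was below Mag in 9 of 10 libraries, HLI replicate 3 being the exception (exact adjusted p = 0.046).

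The label of the group was checked against defining markers. All 10 Schwann cell markers listed for this check, among them Erbb3, Cdh19 and Egr2, passed the filter on low counts. Of 6 oligodendrocyte markers, 1 passed the filter, Sox8, at a mean of 3.16 CPM over the 10 libraries. Olig2 and Opalin were at 0 in every library, Mog reached at most 3 counts, and Mobp and Cldn11 reached at most 11 counts each. The 6 summed to 1.71 to 4.84 CPM in Sham and 2.53 to 5.89 CPM in HLI. Of 6 melanocyte markers, which matter because melanocytes also use SOX10, 1 passed the filter, Mitf, a transcription factor gene used in other cells too, at a mean of 17.1 CPM. Among the rest, Dct reached at most 20 counts, Pmel 16, Tyrp1 5, Mlana 3 and Tyr 1. The 6 summed to 14.1 to 21.3 CPM in Sham and 16.1 to 19.9 CPM in HLI. The part of such cells in the levels of the members was not tested. Muscle fibre markers dominated the libraries, with a summed level of 126495 to 170118 CPM in Sham and 54339 to 146974 CPM in HLI. CPM are the counts per 1000000 counts of a library, with library sizes scaled by TMM.

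No member differed between HLI and Sham beyond the spread between libraries. With edgeR's quasi-likelihood test 0 of the 8 passed a Benjamini-Hochberg adjusted p of 0.05, where 0% of all 13404 genes did. At an unadjusted p under 0.05 the counts were 0 of 8 members and 16.9% of all genes, 6.15% with HLI lower and 10.7% with HLI higher. DESeq2 called 0 members and 0.313% of the genes to which it gave an adjusted p. In no member did the libraries of the groups separate. Over all genes tested, HLI was wholly above Sham in 0.776% and wholly below in 0.873%. HLI over Sham gave a log2 fold change below 0 in 7 members and above 0 in Ngfr, with a median of -0.21 beside 0.03 over all genes, of which 46.2% lay below 0 and 53.8% above. This count was 3 of 8 without Sham replicate 5, 6 of 8 without HLI replicate 3, and 5 of 8 on TPM as deposited, where the median of all genes stood at 0.19. In bulk tissue fewer Schwann cells and less of a transcript per Schwann cell cannot be told apart.

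**Figure D1:**
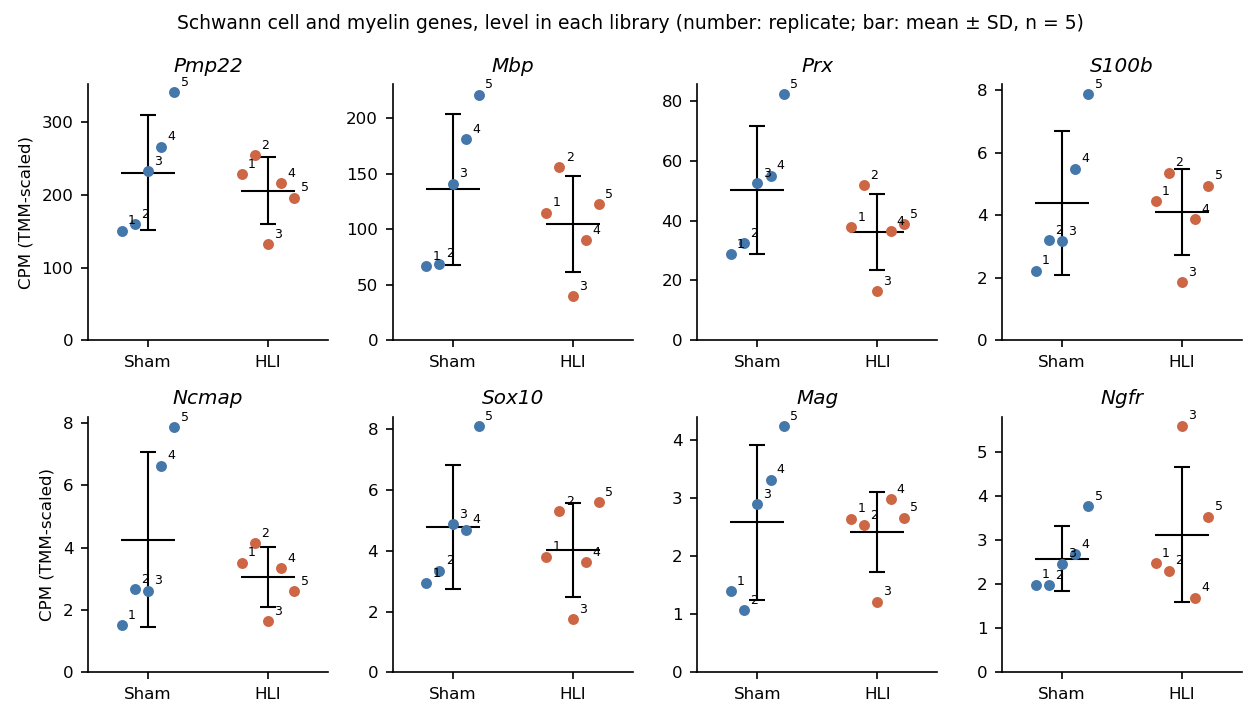
Level of each member in CPM (vertical axis, from 0) in 5 Sham and 5 HLI libraries. Points are libraries numbered by replicate, and bars give the mean ± SD (n = 5). The groups overlap in all 8 genes. Sham replicate 5 is the highest library in 7 of them, and in Ngfr HLI replicate 3 is the highest at 5.60 CPM.

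Sox10 (ENSMUSG00000033006), the lineage transcription factor, stood at 2.93, 3.34, 4.88, 4.69 and 8.08 CPM in Sham replicates 1 to 5 and at 3.80, 5.31, 1.75, 3.63 and 5.60 CPM in HLI replicates 1 to 5. The highest library was in Sham and the lowest in HLI, with the other libraries mixed between them. The log2 fold change was -0.25 (SE 0.34, edgeR adjusted p = 0.68), with a 95% interval of -0.99 to 0.49. Without Sham replicate 5 it was 0.01.

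Among the compact myelin genes, Mbp (ENSMUSG00000041607) encodes the protein that holds the cytoplasmic faces of the membrane together. It stood at 66.6, 69.0, 141, 181 and 221 CPM in Sham replicates 1 to 5 and at 115, 156, 39.8, 90.2 and 122 CPM in HLI replicates 1 to 5. Sham thus held both high and low libraries, and only HLI replicate 3 lay outside the Sham range. HLI over Sham gave a log2 fold change of -0.38 (SE 0.39, 95% interval -1.23 to 0.48, adjusted p = 0.58 in edgeR), and of -0.13 without Sham replicate 5 and -0.17 without HLI replicate 3. The Mbp locus also makes golli transcripts in other cells, and the gene-level values do not separate them.

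Pmp22 (ENSMUSG00000018217) encodes a tetraspan protein of compact myelin whose gene dosage matters in inherited neuropathy, and it is also made outside nerve. It stood at 151, 160, 233, 267 and 342 CPM in Sham replicates 1 to 5 and at 229, 255, 132, 217 and 196 CPM in HLI replicates 1 to 5. The lowest library over both groups was HLI replicate 3, and the whole range was 2.58-fold, the narrowest of the 8 members. On the log2 scale HLI differed from Sham by -0.16 (SE 0.24, 95% interval -0.68 to 0.36, edgeR adjusted p = 0.70), 0.05 on TPM as deposited and 0.02 without Sham replicate 5.

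Among the genes of uncompacted membrane, Prx (ENSMUSG00000053198) encodes periaxin, a scaffold that ties the Schwann cell surface to the basal lamina through dystroglycan. It stood at 28.8, 32.4, 52.6, 55.0 and 82.2 CPM in Sham replicates 1 to 5 and at 37.9, 51.8, 16.3, 36.4 and 38.9 CPM in HLI replicates 1 to 5. Its log2 fold change of -0.47 (SE 0.32, 95% interval -1.16 to 0.23) had the smallest adjusted p of the members (edgeR, 0.41). Leaving out Sham replicate 5 brought it to -0.22, and leaving out HLI replicate 3 to -0.28.

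Ncmap (ENSMUSG00000043924) encodes a small membrane protein of uncompacted Schwann cell myelin. It stood at 1.52, 2.66, 2.63, 6.64 and 7.89 CPM in Sham replicates 1 to 5 and at 3.53, 4.16, 1.65, 3.34 and 2.61 CPM in HLI replicates 1 to 5. Sham replicates 4 and 5 lay above every HLI library and Sham replicate 1 lay below every one. Its log2 fold change was -0.48 (SE 0.43, 95% interval -1.41 to 0.46, edgeR adjusted p = 0.52), and -0.14 without Sham replicate 5. The spread within Sham, with a coefficient of variation of 65.8%, was the largest of the members in either group.

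Mag (ENSMUSG00000036634) encodes an adhesion molecule that binds sialic acid on the axon surface. It stood at 1.40, 1.07, 2.89, 3.32 and 4.24 CPM in Sham replicates 1 to 5 and at 2.65, 2.54, 1.22, 2.99 and 2.66 CPM in HLI replicates 1 to 5. The other HLI libraries than replicate 3 lay close together inside the Sham range, and HLI replicate 3 lay below them, near Sham replicates 1 and 2. For Mag the log2 fold change was -0.10 (SE 0.38, 95% interval -0.93 to 0.74, edgeR adjusted p = 0.90), 0.15 in the absence of Sham replicate 5 and 0.08 in that of HLI replicate 3. Mag rested on 22 to 64 counts per library, the fewest of the members.

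S100b (ENSMUSG00000033208) encodes a calcium-binding protein that is widely used to stain Schwann cells, although other cells make it too. It stood at 2.22, 3.20, 3.16, 5.49 and 7.89 CPM in Sham replicates 1 to 5 and at 4.46, 5.37, 1.85, 3.86 and 4.95 CPM in HLI replicates 1 to 5. For S100b the log2 fold change was -0.10 (SE 0.37, 95% interval -0.89 to 0.70, edgeR adjusted p = 0.89). Its sign turned on TPM as deposited (0.13), without Sham replicate 5 (0.21) and without HLI replicate 3 (0.09).

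Ngfr (ENSMUSG00000000120), the receptor gene that marks immature and repair Schwann cells and is also made by some other cells of muscle, had another distribution. It stood at 1.99, 1.99, 2.46, 2.69 and 3.78 CPM in Sham replicates 1 to 5 and at 2.48, 2.31, 5.60, 1.70 and 3.53 CPM in HLI replicates 1 to 5. HLI replicate 3, the lowest library of the whole series for Sox10, Mbp, S100b, Prx and Pmp22, was the highest for Ngfr, and the lowest Ngfr library was HLI replicate 4. The log2 fold change was 0.28 (SE 0.33, 95% interval -0.43 to 1.0, edgeR adjusted p = 0.62). It was -0.04 without HLI replicate 3. Ngfr rested on 29 to 115 counts per library.

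**Figure D2:**
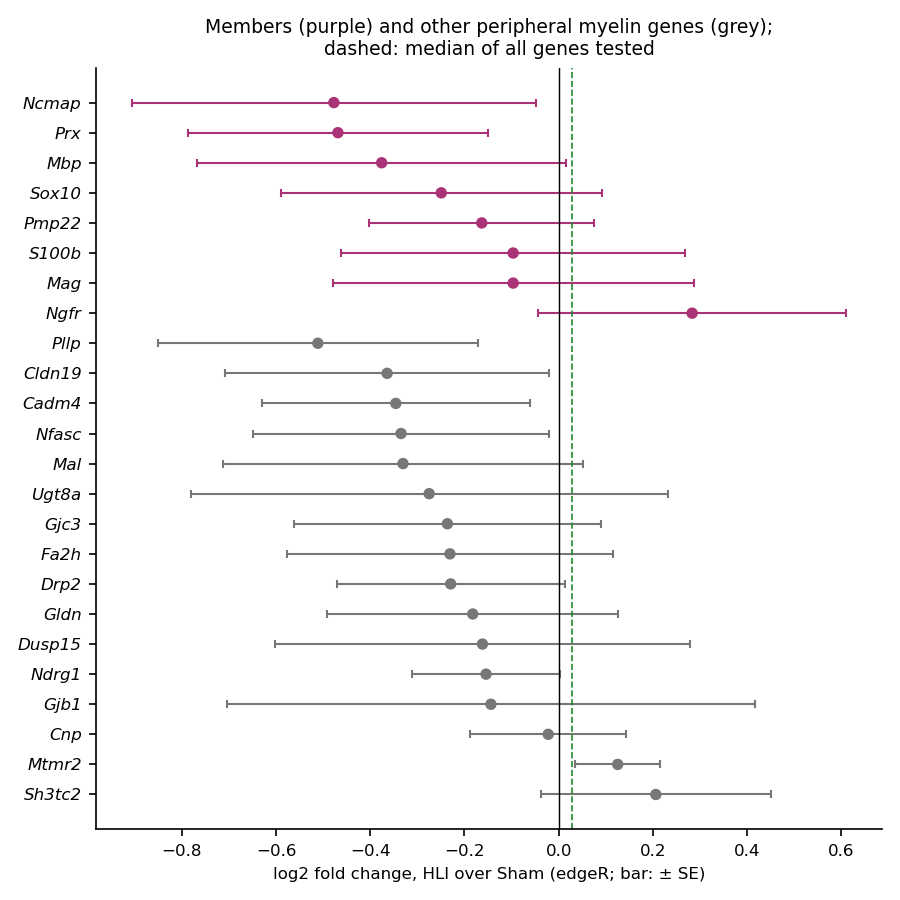
Log2 fold change of HLI over Sham (horizontal axis, edgeR, bars ± SE) for the 8 members in purple and 16 other peripheral myelin genes in grey, with the median of all genes as a dashed line at 0.03. The members run from -0.48 in Ncmap to 0.28 in Ngfr, and no gene shown passed the test.

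The members varied more from library to library than between the groups, and 7 of them varied together. The course of the standardized levels shows Sox10, Mbp, S100b, Mag, Prx, Pmp22 and Ncmap climbing from HLI replicate 3 and Sham replicates 1 and 2 at the low end to Sham replicate 5 at the high end, with single genes leaving that order in between. Sham replicate 1 was among the 3 lowest libraries in 8 of 8 members, Sham replicate 2 in 6 and HLI replicate 3 in 7, whereas Sham replicate 5 was among the 3 highest in 8 of 8. Each member ranged between 2.58-fold, in Pmp22, and 5.57-fold, in Mbp, from its lowest to its highest library. The low and the high libraries included samples of both groups. By the mean of Sox10, Mag, Prx and Mbp the highest library was Sham replicate 5 and the lowest HLI replicate 3. Single members departed from this, with Mag lowest in Sham replicate 2, Ncmap lowest in Sham replicate 1 and Ngfr highest in HLI replicate 3.

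**Figure D3:**
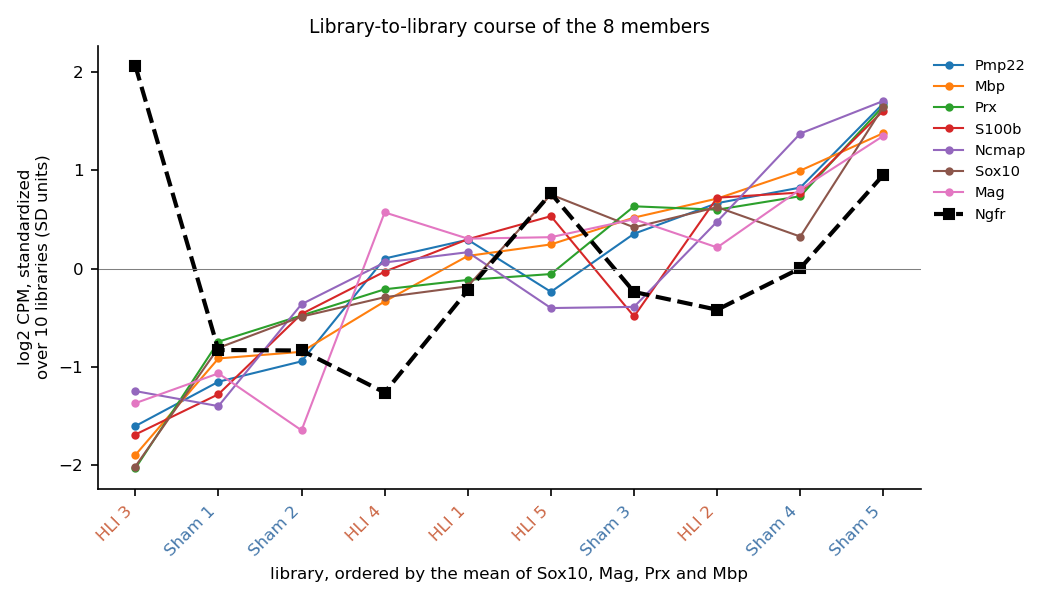
Log2 CPM of each member, standardized over the 10 libraries (vertical axis, in SD), with libraries ordered from left to right by the mean of Sox10, Mag, Prx and Mbp. The 7 coloured genes climb together from HLI replicate 3 to Sham replicate 5. Ngfr, dashed in black, is highest in HLI replicate 3 and lowest in HLI replicate 4.

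Pairs of members were compared over the 10 libraries by the correlation of log2 CPM. There were 28 pairs, with permutation p-values from 100000 resamples adjusted over all of them. All 21 pairs without Ngfr were positively correlated, with Pearson's r from 0.76 to 0.97 (median 0.91) and permutation p adjusted to at most 0.015. Spearman's rho of these pairs ran from 0.59 to 0.99, and 17 of the 21 passed by rank. The tightest pair was Mbp with Prx, with r = 0.97 and rho = 0.99 (unadjusted permutation p = 1e-05 for each, the smallest these resamples can give). It kept r = 0.95 without Sham replicate 5 and HLI replicate 3, the libraries farthest from the median of Mbp. The loosest was Sox10 with Ncmap, with r = 0.76 (adjusted permutation p = 0.015) and rho = 0.59 (adjusted permutation p = 0.11), and r = 0.49 without the same libraries. Over the 21 pairs r was 0.49 to 0.95 when the 2 farthest libraries were left out. Within the groups, as deviations from the group means, r was 0.75 to 0.98 and all 21 pairs passed. On log2(TPM + 1) it was 0.51 to 0.96 and 17 passed. The members share the library and its scaling, and these correlations describe these 10 libraries.

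**Figure D4:**
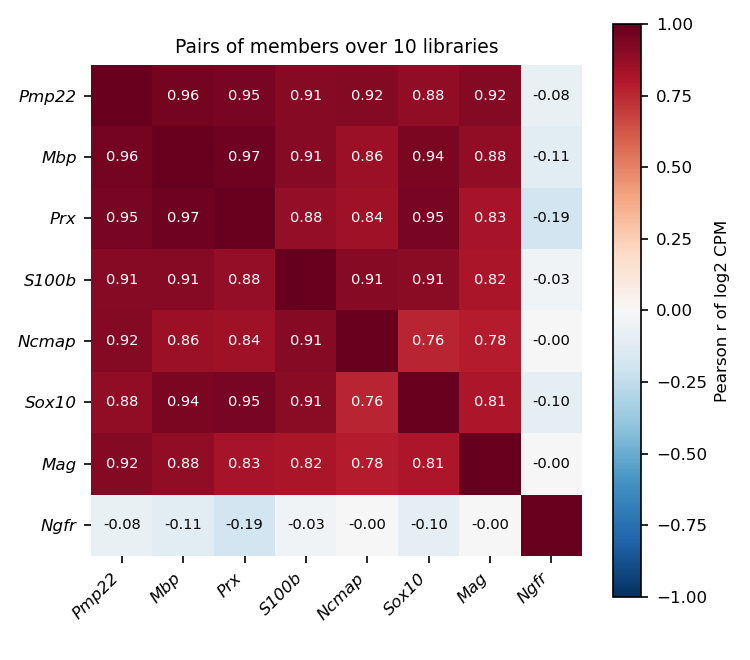
Pearson's r of log2 CPM over 10 libraries for each pair of members, with genes on both axes and the colour scale from -1 to 1. The 21 pairs among the first 7 genes lie between 0.76 and 0.97, and the 7 pairs with Ngfr, in the last row and column, between -0.19 and -0.0011.

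Ngfr showed no such relation over all 10 libraries, and its Pearson's r depended strongly on HLI replicate 3. Its r with the other members ran from -0.19, with Prx, to -0.0011, with Ncmap, and Spearman's rho from 0.09 to 0.30, and 0 of the 7 pairs passed (adjusted permutation p of r between 0.74 and 0.997). Without HLI replicate 3 all 7 values of r were positive, from 0.51 with Ncmap to 0.85 with Sox10. By r the pairs with Sox10, Mbp and S100b then passed (adjusted permutation p = 0.0082, 0.035 and 0.038). By rank only the pair with Sox10 did (adjusted permutation p of rho = 0.049, beside 0.052 with Mbp and 0.068 with S100b). Leaving out any other single library left 0 pairs with Ngfr past the threshold by r. Without both HLI replicate 3 and Sham replicate 5, r was 0.75 with Sox10, 0.42 with Prx, 0.31 with Pmp22 and 0.22 with Ncmap. HLI replicate 3 also had the lowest summed level of muscle fibre markers (54339 CPM), the highest sum of fibroblast and fibro-adipogenic progenitor markers (6514 CPM, beside 2257 to 5016 CPM in the other HLI libraries and 3603 to 4527 CPM in Sham) and the second highest sum of macrophage markers (2173 CPM, beside 513 to 1244 CPM in Sham). It had the largest TMM factor of the series, 1.23. The part of these differences in the Ngfr value was not tested.

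No other listed gene of peripheral myelin reported here passed the edgeR test between HLI and Sham. Of 16 reported here, 16 were tested, 0 passed the edgeR test, 14 had a log2 fold change below 0 and 2 above, and the median was -0.23. Over all genes tested, 0% passed, 46.2% lay below 0 and the median was 0.03. Of the 16 genes, 11 followed the mean course of Sox10, Mag, Prx and Mbp over the libraries with r over 0.8. Their signs are therefore not separate observations. Pllp, which encodes the membrane protein plasmolipin, averaged 5.54 ± 2.96 CPM (Sham) and 3.88 ± 1.32 CPM (HLI, SD, n = 5) and reached 10.7 CPM in Sham replicate 5. Cadm4, an adhesion molecule of the internode, had 9.62 ± 3.80 and 7.57 ± 2.14 CPM. Mtmr2, a phosphoinositide phosphatase gene expressed in many cells, had 34.3 ± 1.08 and 37.4 ± 3.40 CPM. The edgeR adjusted p of these 3 genes was 0.40 for Pllp, 0.48 for Cadm4 and 0.43 for Mtmr2.

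No listed regulator or receptor of Schwann cells passed the edgeR test. Of 22 listed, 21 were tested, 0 passed the edgeR test, 11 lay above 0 and 10 below, and the median log2 fold change was 0.01. Of all genes tested, 0% passed and 53.8% lay above 0, with a median of 0.03. An unadjusted edgeR p under 0.05 was reached by 2 of the 21 with HLI higher and 1 with HLI lower. The shares of all genes were 10.7% and 6.15%. Egr2, the myelin transcription factor that is also an immediate early gene in many cells, stood at 4.21, 3.58, 4.98, 2.92 and 4.77 CPM in Sham replicates 1 to 5 and at 10.5, 5.19, 8.90, 5.91 and 12.1 CPM in HLI replicates 1 to 5. The groups did not overlap, with HLI higher, as in 0.776% of all genes. The log2 fold change of Egr2 was 1.06 (SE 0.25), with an adjusted p of 0.29 in edgeR and of 0.05 (0.049953 before rounding) in DESeq2, the other list genes staying uncalled by both tools. Over the other alternatives its adjusted p ran from 0.081 to 0.57. In the libraries with the highest Egr2, HLI replicates 5, 1 and 3, macrophage markers summed to 1500, 2689 and 2173 CPM, against 634 and 1168 CPM in HLI replicates 4 and 2. In Sham these markers summed to 513 to 1244 CPM, a range that holds HLI replicates 4 and 2, although their Egr2 lay above every Sham library. The part of other cells in the Egr2 level was not tested. Adgrg6, an adhesion receptor that Schwann cells need to start myelin, averaged 9.26 ± 1.28 CPM (Sham) and 7.05 ± 1.11 CPM (HLI), and Nab1, a cofactor of EGR proteins, 27.3 ± 5.49 and 35.5 ± 6.75 CPM (SD, n = 5). Erbb3, the neuregulin receptor gene, averaged 8.32 ± 1.71 and 10.1 ± 2.34 CPM and reached 13.6 CPM in HLI replicate 3. The adjusted p of these 3 genes was 0.29, 0.29 and 0.40 in edgeR.

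No tested gene of the repair state passed the edgeR test either. Of 18 listed, 11 were tested, 0 passed the edgeR test, and 6 lay above 0 and 5 below, with a median of 0.19. Of all genes tested, 0% passed and 53.8% lay above 0, with a median of 0.03. An unadjusted edgeR p under 0.05 was reached by 2 of the 11 with HLI higher and 1 with HLI lower. The shares of all genes were 10.7% and 6.15%. Jun, which encodes the factor that drives the repair state and is made in most cells, averaged 101 ± 18.8 CPM (Sham) and 115 ± 15.3 CPM (HLI, SD, n = 5, edgeR adjusted p = 0.44). Gap43, a growth-associated protein gene, had 0.98 ± 0.31 and 1.60 ± 0.35 CPM, and Runx2, a transcription factor gene, averaged 2.50 ± 1.31 and 4.69 ± 2.48 CPM and reached 8.81 CPM in HLI replicate 3. L1cam, an adhesion molecule of unmyelinated Schwann cells and axons, stood at 8.95, 10.4, 7.72, 7.67 and 8.68 CPM in Sham replicates 1 to 5 and at 7.33, 7.16, 3.41, 5.68 and 6.52 CPM in HLI replicates 1 to 5. The groups did not overlap, with HLI lower, as in 0.873% of all genes, and its log2 fold change was -0.53 (SE 0.20, edgeR adjusted p = 0.29). It was -0.15 on TPM as deposited, or -0.31 on TPM scaled by median of ratios. On TPM as deposited the groups overlapped in L1cam, at 1.8 to 5.7 in HLI and 2.3 to 3.8 in Sham. The highest library there was HLI replicate 2. Shh, a signal of repair cells, had 0 counts in every HLI library and 0 to 5 counts in Sham. Gdnf, a neurotrophic factor gene, had 1 to 11 counts per library in Sham and 8 to 20 in HLI, too few to pass the filter.

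Axonal and perineurial genes gave the remaining view of the nerve. Of 16 axon and nodal genes, 8 were tested, 0 passed the edgeR test, and 3 lay above 0 and 5 below, with a median of -0.14. Of all genes tested, 0% passed and 46.2% lay below 0, with a median of 0.03. An unadjusted edgeR p under 0.05 was reached by 1 of the 8 with HLI higher and 2 with HLI lower. The shares of all genes were 10.7% and 6.15%. Nefl, a neurofilament gene whose messenger is made in neuron bodies outside muscle, reached at most 9 counts. Stmn2, a stathmin gene of growing axons, stood at 10.1, 11.1, 8.79, 10.2 and 13.9 CPM in Sham replicates 1 to 5 and at 7.22, 8.77, 7.78, 7.49 and 8.26 CPM in HLI replicates 1 to 5, with every HLI library below every Sham library. Over all genes tested, 0.873% had HLI wholly below Sham. The nearest Stmn2 libraries were HLI replicate 2 at 8.773 CPM and Sham replicate 3 at 8.788 CPM. The log2 fold change of Stmn2 was -0.45 (SE 0.14, edgeR adjusted p = 0.29), and -0.21 on TPM as deposited. On that TPM scale the groups overlapped, at 6.0 to 8.8 in HLI and 7.6 to 10.8 in Sham. Prph, which encodes the intermediate filament peripherin, had 2.99 ± 0.60 and 1.80 ± 0.82 CPM, and Kcna1, a juxtaparanodal potassium channel gene, had 3.40 ± 0.61 and 2.54 ± 0.91 CPM (SD, n = 5). The part of axons in the levels of Stmn2, Prph and Kcna1 was not tested. Of 12 perineurial and endoneurial markers, 11 were tested, 0 passed the edgeR test and the median was -0.06. An unadjusted edgeR p under 0.05 was reached by 1 of these 11 with HLI higher and 0 with HLI lower. Osr2, a transcription factor gene used as a marker of endoneurial fibroblasts, averaged 2.61 ± 0.49 CPM (Sham) and 4.83 ± 1.63 CPM (HLI) and reached 7.30 CPM in HLI replicate 3 (edgeR adjusted p = 0.29). Etv1 had 9.88 ± 1.48 and 11.8 ± 1.38 CPM, and Ncald had 14.0 ± 0.80 and 15.9 ± 1.69 CPM.

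**Figure D5:**
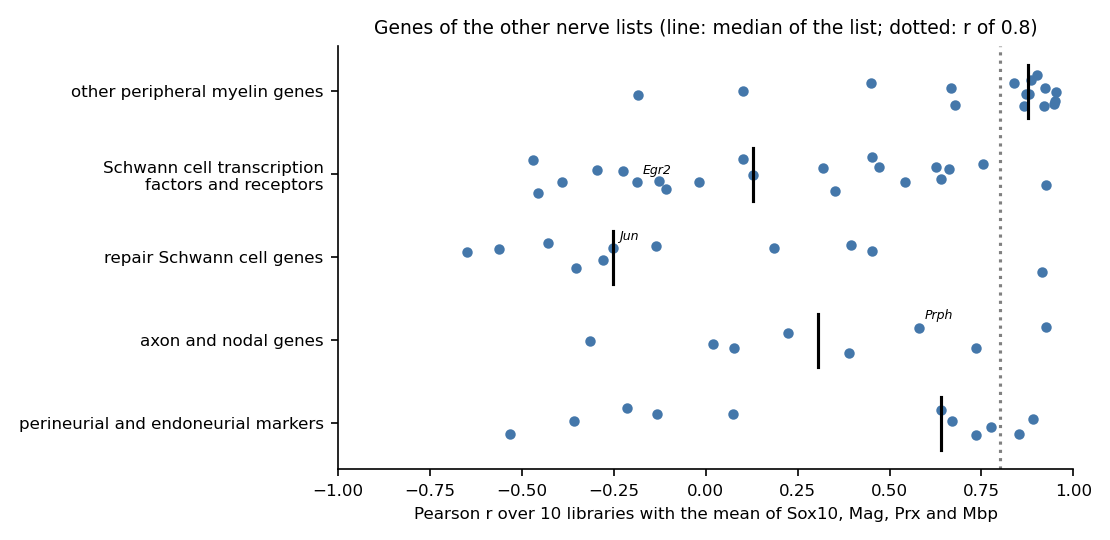
Pearson's r over 10 libraries (horizontal axis) between each tested gene of the 5 other nerve lists and the mean standardized level of Sox10, Mag, Prx and Mbp. Points are genes with a vertical scatter that carries no value, lines are the medians of the lists, and the dotted line stands at 0.8. Of the other myelin genes 11 of 16 lie above 0.8, and Egr2 and Jun lie below 0.

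The course shared by the members was then looked for in other genes, with the mean of the standardized log2 CPM of Sox10, Mag, Prx and Mbp as the pattern. These correlations over 10 libraries are descriptions, since all genes share the libraries. Of the 16 other peripheral myelin genes 11 had r over 0.8 (median 0.88). Drp2, whose product binds periaxin, had the highest, 0.95, and was chosen for mention after its value was seen. Of the 12801 genes of no list with a mean of at least 1 CPM, 57 or 0.445% had r over 0.8. The counts over 0.8 were 1 of 21 for the regulators and receptors, 1 of 11 for the repair genes, 1 of 8 for the axon and nodal genes and 2 of 11 for the perineurial and endoneurial markers. Egr2 had r = -0.19, Erbb3 -0.22 and Jun -0.25. Over the 21 regulators and receptors r ran from -0.47 to 0.93, with a median of 0.13. Erbb3 was highest in HLI replicate 3, the library lowest in the pattern. The 10 most alike genes of no list were Kif1a (0.97), a motor protein gene of axonal transport, Adcy1 (0.96), an adenylate cyclase gene, Gpm6a (0.95), a neuronal membrane glycoprotein gene, Sema3b (0.93), a semaphorin gene, Cdh1 (0.91), which encodes E-cadherin, Tgfa (0.90), Rnaseh1 (0.90), Elovl7 (0.90), Sostdc1 (0.89) and H2bc6 (0.89). Kif1a averaged 8.74 ± 3.47 CPM (Sham) and 7.04 ± 2.63 CPM (HLI, SD, n = 5), and Sema3b averaged 31.2 ± 10.0 and 25.4 ± 6.25 CPM. None of the 10 passed the edgeR test between HLI and Sham.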

How the data were processed

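Poly(A) RNA of 5 Sham and 5 HLI gastrocnemius samples was sequenced as paired-end libraries, per the labels' protocols. The protocol also mentions adipose tissue, so its wording may not fit these samples. HISAT2 2.0, Bowtie 0.12.2 and the build mm8 are named in the submitters' processing notes without a role. Which counter, annotation and strand setting made the table is not given in the sources used here. The authors deposited estimated counts, 93.4% of them whole, and TPM values, per the file headers. Totals of the estimated counts were 16556385 to 22136299 per library, and TMM factors 0.91 to 1.23.

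Estimated counts were rounded and tested in R 4.3.3 with edgeR 4.0.16 (quasi-likelihood, TMM, filterByExpr at its minimum count of 10 and minimum total of 15, no covariate), with Benjamini-Hochberg adjustment over 13404 genes. Correlations used log2 CPM with a prior count of 2. The edgeR and permutation steps were tested on simulated data. Alternatives were a replicate block, each library left out, DESeq2 1.42.0 and its size factors, no filter, a robust prior, and limma 3.58.1 on log2(TPM + 1) and log2(TPM + 0.1). TPM scaled by median of ratios and the correlations without 1 library were added after seeing the data. The members and the lists were chosen with earlier results of these data known. Named list genes are the 3 smallest unadjusted p-values per list at a mean of at least 1 CPM, besides Egr2, Erbb3, Jun, Shh, Gdnf, Nefl and Prph. The most alike genes are the 10 with the highest r outside the lists. Of the list of other myelin genes, 2 are not reported here and stand in no count of that list.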

Additional observations from a re-analysis of the deposited data

Results flagged for a closer look

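Across 56 groups of 5 libraries examined for a single distant value, 3 were marked, and chance marks about 1 in 20 groups. Mag stood at 1.22 CPM in HLI replicate 3, far below the other HLI libraries. Pllp stood at 10.7 CPM in Sham replicate 5, far above the other Sham libraries. Shh stood at 0.27 CPM in Sham replicate 3, which rests on 5 counts, while the other Sham libraries had 0 or 1.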

How the results depend on the processing

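No member passed the test under any of the 18 alternatives, where the smallest adjusted p was 0.27, and 133 of 144 member values kept their sign. Without Sham replicate 5 the log2 fold change turned to 0.013 for Sox10, 0.21 for S100b, 0.15 for Mag and 0.020 for Pmp22. Without HLI replicate 3 it turned to 0.09 for S100b, 0.08 for Mag and -0.036 for Ngfr. On log2(TPM + 1) it was 0.13 for S100b and 0.047 for Pmp22, and on log2(TPM + 0.1) 0.16 and 0.047. Leaving out 1 library gave -0.40 to 0.01 for Sox10, -0.57 to -0.13 for Mbp, -0.26 to 0.21 for S100b, -0.30 to 0.15 for Mag, -0.63 to -0.22 for Prx, -0.04 to 0.45 for Ngfr, -0.28 to 0.02 for Pmp22 and -0.69 to -0.14 for Ncmap. DESeq2 called 45 genes where edgeR called 0. With the replicate number as a block edgeR called 0 genes, and 2986 instead of 2262 had an unadjusted p under 0.05. The labels do not say whether the numbers pair the samples. Deviations of same-numbered libraries correlated between -0.01 and 0.28. Only Sham replicates 2 and 3, and no HLI library, correlated best with their own number. Such correlations cannot decide this, since paired samples need not correlate over all genes. The count of correlated pairs was 20 to 24 without 1 library, beside 21. Without HLI replicate 3 the r of Ngfr turned to 0.85 with Sox10, 0.73 with Mbp, 0.71 with S100b, 0.57 with Mag, 0.67 with Prx, 0.58 with Pmp22 and 0.51 with Ncmap. The r of Ngfr with Pmp22 was 0.014 on log2(TPM + 1), and that with Ncmap 0.039 on deviations from group means. Counts of 22 to 122 per library limit Mag, Ngfr, Ncmap, S100b and Sox10. The causes of these changes were not tested.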
